A study of Mus musculus with 9 samples.

Results

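Brown adipose tissue from cold-exposed GCN2 KO mice was compared with that from cold-exposed WT mice across every gene of the deposited table for this pair of groups. The comparison rests on 6 of the 9 RNA-seq libraries of the series, 3 per group, and on all 16312 genes that the table lists, out of 16937 listed in at least 1 of the series' tables. WT mice and mice with a whole-body deletion of Gcn2, both adult and on a C57Bl/6J background, were individually housed and kept at 4 °C for 8 h before brown fat was taken. The remaining 3 libraries came from WT mice kept at 23 °C (WT RT), and no library of GCN2 KO mice at that temperature was analysed here, so a difference that the deletion makes at rest and one that it makes in the cold cannot be told apart. Mice of both sexes were used, and the sample labels give no sex. The title of 1 GCN2 KO sample names both genotypes, while its genotype field reads GCN2 KO, which was followed. The libraries of each group are called A, B and C in the order of their codes in the table, since these codes could not be matched to the numbered replicates.

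GCN2, encoded by Eif2ak4, is a protein kinase that senses amino acid shortage through uncharged tRNA and phosphorylates the translation initiation factor eIF2. The resulting integrated stress response slows protein synthesis and favours the transcription factor ATF4, whose targets include genes of amino acid synthesis and transport. Brown adipose tissue burns fatty acids and glucose in its abundant mitochondria, and uncoupling protein UCP1 turns the energy into heat.

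The 6 libraries held between 27055469 and 28942174 reads assigned to genes. The values given below are normalized counts, that is, reads divided by a size factor for the library, unless CPM, which scales reads by the library total alone, is named. The brown adipocyte genes Ucp1, Cidea and Elovl3 were abundant in every library, with Ucp1 between 220783 and 286835 normalized counts. Skeletal muscle transcripts were present as well. Over the 72 tested sarcomere genes the summed normalized count lay between 29330 and 77906 in the GCN2 KO Cold libraries and between 116945 and 181926 in the WT Cold libraries, so that these groups were apart. The sums over 79 further muscle genes overlapped, with 143872 to 152091 in GCN2 KO Cold and 140060 to 182041 in WT Cold. Taken gene by gene, however, 72 of these 79 had a negative log2 fold change, with a median of -1.60. Their median level, relative to the WT Cold mean, was -0.97, -1.41 and -2.39 on the log2 scale in GCN2 KO Cold. In WT Cold it was 0.25, 0.13 and -0.41, so by this measure the groups were apart. In bulk tissue, fewer cells of a type and less RNA per cell cannot be told apart. Library C of each group stood apart in sex-linked transcripts: Ddx3y, on the Y chromosome, was at 309 and 194 normalized counts in these 2 libraries and between 2374 and 3814 in the other 4.

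The targeted transcript, Eif2ak4, was not reduced in the knockout libraries as labelled. It stood at 347, 371 and 350 normalized counts in the GCN2 KO Cold libraries and at 171, 225 and 231 in the WT Cold libraries. All 3 libraries labelled GCN2 KO Cold were above all 3 WT Cold libraries, with a log2 fold change of 0.78 (SE 0.15), which did not pass the limma test (adjusted p = 0.0932) and passed with DESeq2 (adjusted p = 0.00271). In CPM the means were 12.1 ± 0.46 in GCN2 KO Cold, 7.70 ± 1.07 in WT Cold, and 12.3 ± 1.04 in WT RT (SD, n = 3). Where the deletion lies in the transcript is not given in the sources used here, and a gene-level count does not show whether the remaining RNA encodes the kinase. The group names below are therefore those of the labels.

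By limma on the log2 scale with a pseudocount of 1, 66 of 16312 genes differed at an adjusted p under 0.05. Of these, 29 were higher (0.178% of the genes tested) and 37 lower (0.227%) in GCN2 KO Cold. At an unadjusted p under 0.05 there were 2500 genes, 1278 higher and 1222 lower. With a log2 fold change over 1 in size as a further condition, 42 genes remained, 10 higher and 32 lower. DESeq2 was less strict and passed 536 genes, 236 higher (1.45%) and 300 lower (1.84%), whereas edgeR, on the same reads, passed 44, 18 higher and 26 lower. On the CPM scale the median log2 fold change of all genes moved from -0.0031 to -0.12, and the split by limma became 11 higher and 52 lower. List medians on the CPM scale, given below, stand beside this -0.12. Of the 66 genes 13, all of them lower, were on the skeletal muscle lists, which hold 72 and 79 of the tested genes, and 53 were off them, 29 higher and 24 lower. The number of genes passed depended on single libraries, falling to 5 without WT Cold A, 3 without WT Cold B, 24 without WT Cold C, 18 without GCN2 KO Cold A, 5 without GCN2 KO Cold B and 14 without GCN2 KO Cold C. It rose to 168 when library C of both groups was left out, and to 289 (81 higher and 208 lower, with all 66 among them) when a term for library C was added to the fit, both tried after the data were seen.

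**Figure D1:**
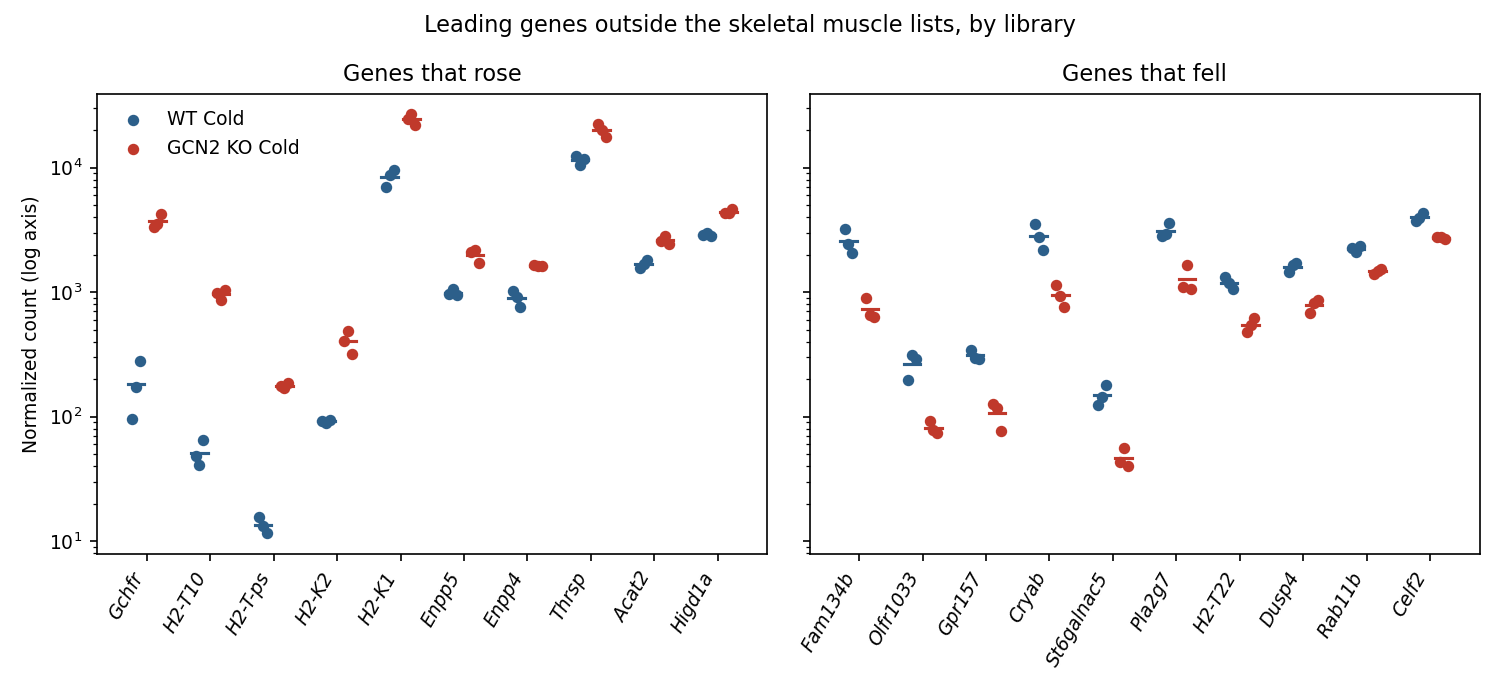
Normalized count (log axis) of 20 genes outside the skeletal muscle lists in each of the 6 libraries, with WT Cold in blue, GCN2 KO Cold in red and a bar at each group mean. The groups did not overlap for any of these genes, and the gap was widest for Gchfr and H2-T10 and narrowest for the small changes of Higd1a and Celf2.

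Of the genes averaging 50 or more normalized counts, Gchfr had the largest rise. It encodes the feedback regulator of GTP cyclohydrolase 1 and thereby restrains synthesis of the cofactor tetrahydrobiopterin. Gchfr stood at 3366, 3543 and 4225 normalized counts in GCN2 KO Cold and at 94.9, 174 and 282 in WT Cold. The groups were far apart, and the WT Cold libraries differed from each other far less than the groups did. The log2 fold change was 4.46 (SE 0.35, limma adjusted p = 0.00842). The WT level was alike at both temperatures, at 6.73 CPM in the cold and 7.12 CPM at room temperature, against 126 CPM in GCN2 KO Cold. With 1 library left out the call was lost without WT Cold B (limma adjusted p = 0.0816) and without GCN2 KO Cold B (0.0508). Gchfr lies on chromosome 2, as does Eif2ak4, with 17 tested genes between them.

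The other genes of tetrahydrobiopterin synthesis and recycling had much smaller differences. Of the 8 listed genes, 7 had a positive log2 fold change, with a median of 0.36 (0.21 without WT Cold A) against -0.0031 over all genes, and limma passed Gchfr alone. Gch1, the enzyme that GCHFR restrains, was at 188, 281 and 315 normalized counts in GCN2 KO Cold and 225, 289 and 343 in WT Cold, so the groups overlapped. Pts, which acts next in the pathway, was at 1944, 1832 and 1692 against 1184, 1404 and 1305, and Pcbd2, which recycles the cofactor, was at 1275, 1171 and 1043 against 716, 800 and 851. Both of these passed DESeq2 (adjusted p = 0.00622 and 0.00472) and not limma (0.0944 and 0.0960).

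Several class I histocompatibility genes were among the other large rises. These genes encode the cell surface molecules that present peptides to T cells, or their close relatives, and lie together on chromosome 17. H2-K1, a classical class I gene, was at 24441, 26767 and 22187 normalized counts in GCN2 KO Cold and at 7046, 8702 and 9628 in WT Cold. Its groups were well apart, and the gene rose with a log2 fold change of 1.54 (SE 0.13, limma adjusted p = 0.00842). H2-T10, a nonclassical class I gene, was at 984, 866 and 1047 against 48.4, 40.5 and 64.5, a log2 fold change of 4.23 (SE 0.19, limma adjusted p = 0.000323). The call of H2-T10 held in each of the 6 fits that left out 1 library, while that of H2-K1 was lost without WT Cold B (limma adjusted p = 0.0831) and without GCN2 KO Cold B (0.0581).

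The direction was not the same across the class. H2-K2 rose from 93.1, 89.5 and 93.3 normalized counts in WT Cold to 406, 486 and 317 in GCN2 KO Cold, and the pseudogene H2-T-ps rose from 15.5, 13.2 and 11.5 to 175, 170 and 186. H2-T22, a further nonclassical gene, fell from 1317, 1175 and 1070 to 479, 544 and 615 (log2 fold change -1.12, SE 0.12, limma adjusted p = 0.0295). The groups of each of these genes were fully separated. H2-D1, the other classical class I gene, was at 17112, 18649.5 and 14828 against 9909, 11073 and 12094, which passed DESeq2 (adjusted p = 0.000464) and not limma (0.0816). H2-Q4 (log2 fold change 0.78), H2-T24 (1.04) and H2-Q2 (1.14) likewise passed DESeq2 only. The genes of this family are near-identical copies in places. According to the study only unique reads were counted, so reads that match several copies alike would be left out. Each single value is therefore uncertain.

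Genes that load and assemble these molecules overlapped between the groups. B2m, the light chain of class I, was at 13503, 16948 and 13903 normalized counts in GCN2 KO Cold and at 10993, 12612 and 14610 in WT Cold, with overlapping groups. The peptide transporter genes Tap1 and Tap2, the loading factor Tapbp, the immunoproteasome subunits Psmb8, Psmb9 and Psmb10, and the transactivator Nlrc5 overlapped as well. Of the 27 tested genes of the antigen presentation list, 14 had a positive log2 fold change, the median was 0.03 (-0.09 on the CPM scale, 0.22 without library C of both groups, and -0.13 to 0.13 with 1 library left out), limma passed 2 higher and 1 lower, and DESeq2 passed 5 higher and 2 lower. The class II gene H2-Eb1 was 1 of those lower by DESeq2 (log2 fold change -0.73, adjusted p = 0.0408), at 1326, 1130 and 2095 against 2490, 2442 and 2352. Among 41 tested interferon-stimulated genes, which usually follow the same signals as class I genes, 10 had a positive log2 fold change, none passed limma or DESeq2, and 6 had an unadjusted p under 0.05 by limma (1 higher and 5 lower).

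The promoters of the classical class I gene and of Gchfr are shown as those of 2 leading genes that rose. The sequences run from 250 bases before to 50 bases after the RefSeq start (build GRCm38.p6), at chr2:119167538-119167837 on the plus strand for Gchfr and at chr17:34000298-34000597 on the minus strand for H2-K1, for which RefSeq lists 2 starts. Capitals mark CCAAT or its reverse complement ATTGG, the letters bound by nuclear factor Y in many promoters of class I and lipid synthesis genes.
Gchfr: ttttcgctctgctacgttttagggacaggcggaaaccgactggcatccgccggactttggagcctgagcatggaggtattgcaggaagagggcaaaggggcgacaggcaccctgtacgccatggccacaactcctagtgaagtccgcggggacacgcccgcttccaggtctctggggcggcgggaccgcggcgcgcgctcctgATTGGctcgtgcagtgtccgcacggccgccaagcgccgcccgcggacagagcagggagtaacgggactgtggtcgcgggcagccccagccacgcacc
H2-K1: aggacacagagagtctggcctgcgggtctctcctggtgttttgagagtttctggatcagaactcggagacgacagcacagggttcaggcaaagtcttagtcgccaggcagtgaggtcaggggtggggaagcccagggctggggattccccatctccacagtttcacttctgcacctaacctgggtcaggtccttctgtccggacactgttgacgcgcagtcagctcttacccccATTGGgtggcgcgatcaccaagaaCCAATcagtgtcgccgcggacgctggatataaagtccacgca
The Gchfr window held 1 such match and the H2-K1 window 2. Of the 11719 tested genes with a promoter in the table, 42.2% held at least 1 match on either strand, as did 17 of 19 antigen presentation genes, whether or not they rose. A match is a description of the letters and does not show that the site is used.

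A larger share of the tested genes passed on chromosome 17 than on the other chromosomes combined. Limma passed 12 of its 771 tested genes (1.56%), 9 higher and 3 lower, and DESeq2 passed 55 (7.13%). On all chromosomes but 2 and 17, limma passed 48 of 14253 genes (0.337%) and DESeq2 427. A stretch of 148 tested genes, from H2-K2 to Enpp4, was drawn to end at genes that passed limma. Its shares are thus partly set by that choice. Within it, limma passed 9 and DESeq2 25 (16.9%). Besides the H2 genes these include the neighbours Enpp5 and Enpp4, which encode members of the nucleotide pyrophosphatase family, and Ppp1r11, which encodes an inhibitor of protein phosphatase 1. Enpp5 rose from 969, 1063 and 947 normalized counts to 2112, 2194 and 1699, Enpp4 from 1027, 919 and 757 to 1643, 1611 and 1624, and Ppp1r11 from 890, 937 and 903 to 1449, 1489 and 1651. Each of these genes was higher in all 3 GCN2 KO Cold libraries than in any WT Cold library. Pla2g7, with 4 tested genes between it and Enpp5, fell. Chromosome 2 held 6 genes passed by limma (0.479%) and 54 by DESeq2 (4.31%) of 1253. Srp14, the tested gene next to Eif2ak4, was at 2073, 2009 and 2288 against 1510, 1635 and 1538 (DESeq2 adjusted p = 0.00599, limma 0.0829). The position of these genes was noticed in these data, and whether it bears on their change was not tested.

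**Figure D2:**
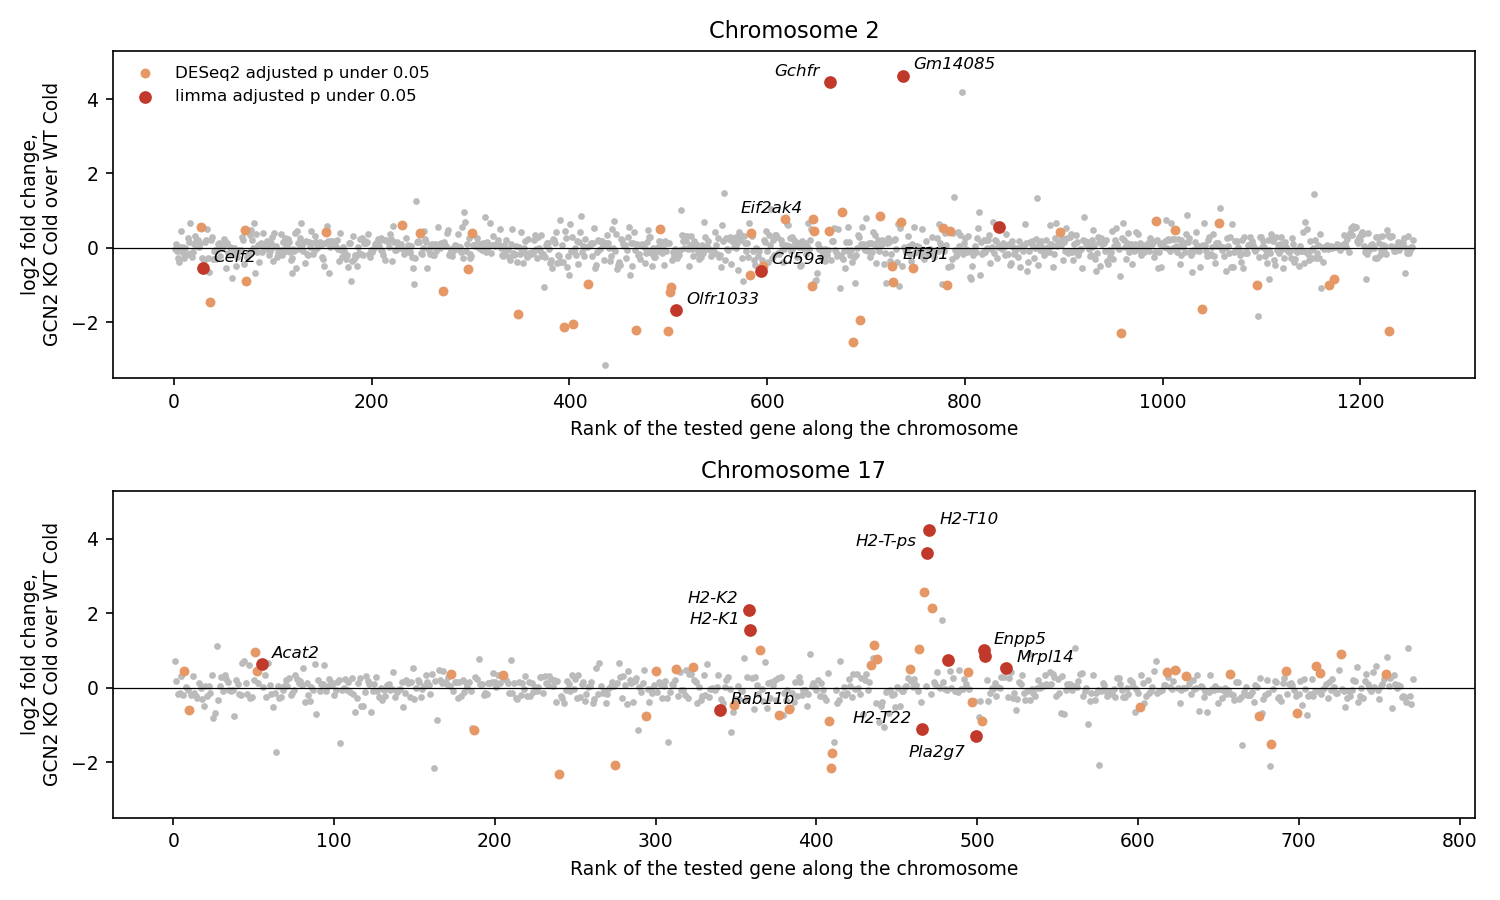
Log2 fold change of each tested gene of chromosomes 2 and 17 (GCN2 KO Cold over WT Cold) against its rank along the chromosome, with orange points for DESeq2 and red points for limma at an adjusted p under 0.05. On chromosome 2 the high points are Gchfr and Gm14085, while chromosome 17 shows the H2 genes and the Enpp pair within 148 ranks.

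For 3 further transcripts the WT Cold values were low beside those of the libraries labelled GCN2 KO Cold. Eif3j2, a copy of the gene for the J subunit of translation initiation factor 3, was at 726, 790 and 858 normalized counts in GCN2 KO Cold and 63, 49 and 66.4 in WT Cold (log2 fold change 3.72, SE 0.16, limma adjusted p = 0.000323). Eif3j1, the other copy, was at 1934, 1831 and 2220 against 2911, 2594 and 2801, lower in every GCN2 KO Cold library (log2 fold change -0.48, limma adjusted p = 0.0969, DESeq2 0.00799). The copies are near-identical. According to the study only unique reads were counted, so reads that match both copies alike would be left out, and each value is uncertain. The predicted genes Gm3650, at 50.6, 42.8 and 60.1 against 2.74, 3.77 and 3.85, and Gm14085, at 52.7, 78.5 and 63.4 against 2.74, 0 and 3.85, also rose (limma adjusted p = 0.0142 and 0.0439). Their WT Cold values rest on at most 4 reads per library, so the fitted fold changes (3.55 and 4.63 on the log2 scale) depend on the pseudocount.

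Of the 29 genes that rose, Higd1a, Mrpl14, Mrps36, Bola3, Isca2, Chchd7 and Tmem14c encode mitochondrial proteins, a grouping made after the values were seen. Their rises were small. Higd1a, a factor that associates with the respiratory chain, was at 4322, 4303 and 4670 normalized counts in GCN2 KO Cold and 2866, 2989 and 2824 in WT Cold (log2 fold change 0.61, SE 0.07, limma adjusted p = 0.0295). Mrpl14, of the mitochondrial ribosome, was at 1946, 1983 and 2071 against 1420, 1381 and 1354. Bola3 and Isca2, which serve the assembly of iron-sulfur clusters, had log2 fold changes of 0.53 and 0.46. The replicates of these genes lay so close together that differences of this size passed the test. On the CPM scale, Higd1a kept an adjusted p of 0.0460 while Mrpl14 (0.0776), Mrps36 (0.0851), Bola3 (0.0810), Isca2 (0.0923), Chchd7 (0.0810) and Tmem14c (0.0641) did not pass limma.

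Positive log2 fold changes were frequent across the respiratory chain. Of 59 listed nuclear genes of the respiratory chain, 58 had a positive log2 fold change, against 8081 of 16312 genes tested, and the median was 0.33 (0.21 on the CPM scale, where the median of all genes was -0.12). Their groups did not overlap for 56 genes, 55 higher and 1 lower, where 11.3% of all genes tested were higher without overlap and 10.7% lower. None of the 59 passed limma at the adjusted threshold, although 46 of them were higher at an unadjusted p under 0.05, and DESeq2 passed 23 higher and 1 lower. The median level of the list, relative to the WT Cold mean, was 0.27, 0.25 and 0.45 on the log2 scale in GCN2 KO Cold and -0.03, 0.05 and -0.01 in WT Cold. The highest value was that of GCN2 KO Cold C. This library had the least sarcomere RNA and stood apart in sex-linked transcripts, and whether either bears on this value was not tested. Without library C of both groups the median was 0.25.

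Cox8b, a cytochrome c oxidase subunit of brown fat and striated muscle, was at 57314, 59618 and 58344 normalized counts in GCN2 KO Cold and at 36676, 45557 and 41637 in WT Cold. Ndufb3, of complex I, was at 10953, 11546 and 12463 against 8386, 9399 and 8643. The 1 listed gene with a negative log2 fold change was Atp5g1, which encodes a copy of the c subunit of ATP synthase, at 912, 784 and 752 against 1346, 1411 and 1170 (log2 fold change -0.68, DESeq2 adjusted p = 0.000203, limma 0.0635). All 46 tested genes with a symbol starting Nduf, and 78 of 80 starting Mrpl or Mrps, had positive log2 fold changes, with medians of 0.38 and 0.26. So had all 11 starting Uqcr (median 0.35), 15 of 17 starting Atp5 (0.22) and 21 of 25 starting Cox (0.33), and the Cox symbols also reached down to -2.26. These symbol families were formed after the values were seen. The 33 genes encoded by the mitochondrial genome had a median of 0.16 (0.040 on the CPM scale, and 0.12 to 0.24 with 1 library left out). The cytosolic ribosomal proteins had one of 0.11 (-0.0061 on the CPM scale, and 0.046 to 0.15 with 1 library left out).

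2 genes of lipid synthesis, Thrsp and Acat2, rose. Thrsp, a regulator of fatty acid synthesis in fat and liver, rose from 12367, 10529 and 11840 normalized counts in WT Cold to 22406, 19992 and 17791 in GCN2 KO Cold (log2 fold change 0.79, SE 0.11, limma adjusted p = 0.0439). Acat2, which joins acetyl groups in the first step towards the sterol precursors, rose from 1557, 1688 and 1812 to 2579, 2840 and 2441 (log2 fold change 0.64, SE 0.09, limma adjusted p = 0.0461). The groups were separated for both genes. Both were far higher at room temperature, with Thrsp at 2867 CPM in WT RT against 428 (WT Cold) and 684 (GCN2 KO Cold), and Acat2 at 197 CPM against 62.2 and 89.3. On the CPM scale neither passed limma (adjusted p = 0.0633 and 0.0641).

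All 24 genes of the cholesterol synthesis list had a positive log2 fold change, with a median of 0.47 (0.35 on the CPM scale). The groups were apart, higher, for 11 of them, against 11.3% of all genes tested. DESeq2 passed 5 higher, against 1.45% of all genes, while limma passed none at the adjusted threshold. At an unadjusted p under 0.05 by limma 15 were higher, against 1278 of all 16312 genes. Hsd17b7, a ketosteroid reductase of the late pathway, was at 1566, 1288 and 1056 normalized counts in GCN2 KO Cold and 741, 573 and 711 in WT Cold (log2 fold change 0.94, DESeq2 adjusted p = 3.45e-05, limma 0.0725). Sqle, the squalene epoxidase, was at 1660, 1578 and 1055 against 657, 734 and 974, and the groups came close in library C. Mvk, Cyp51 and Msmo1 also passed DESeq2. Srebf2, the transcription factor of the pathway, overlapped between the groups, at 1548, 1327 and 1200 against 1340, 1350 and 1204. The median of the list was 0.69 without library C of both groups.

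The promoters of Thrsp and Hsd17b7 are shown as the leading genes of the fatty acid and cholesterol lists, at chr7:97417501-97417800 and chr1:169969156-169969455, both on the minus strand, over the same span and with the same meaning of capitals as above.
Thrsp: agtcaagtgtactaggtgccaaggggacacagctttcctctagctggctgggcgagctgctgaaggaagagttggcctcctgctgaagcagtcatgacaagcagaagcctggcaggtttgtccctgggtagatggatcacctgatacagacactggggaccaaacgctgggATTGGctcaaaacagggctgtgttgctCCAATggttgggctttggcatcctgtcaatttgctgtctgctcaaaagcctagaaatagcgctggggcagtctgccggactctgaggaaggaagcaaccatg
Hsd17b7: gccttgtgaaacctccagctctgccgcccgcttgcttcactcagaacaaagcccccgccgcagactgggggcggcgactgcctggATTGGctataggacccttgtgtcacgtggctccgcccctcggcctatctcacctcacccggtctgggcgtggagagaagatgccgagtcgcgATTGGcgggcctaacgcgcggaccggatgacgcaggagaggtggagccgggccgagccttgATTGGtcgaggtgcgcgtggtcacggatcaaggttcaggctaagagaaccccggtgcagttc
The windows held 2 and 3 CCAAT matches. All 16 cholesterol genes with a promoter in the table held at least 1, and 11 of 16 fatty acid synthesis genes, against 42.2% of tested genes and 37.4% of all 32851 promoters. The sterol element TCACNCCAC, on either strand, was found in 1 of the 16 cholesterol promoters (that of Hmgcs1) and in 1.49% of tested genes. No match says only that these letters are not in this window.

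Fatty acid synthesis as a list was mixed. Of 20 genes, 15 had a positive log2 fold change, with a median of 0.23 (0.11 on the CPM scale, and 0.15 to 0.30 with 1 library left out). The median level of the list, relative to the WT Cold mean, overlapped between the groups, at 0.084 in GCN2 KO Cold B and 0.16 in WT Cold C. Limma passed Thrsp, and DESeq2 passed Thrsp, Acss2, Me1 and Elovl3. Acss2, which makes acetyl-CoA from acetate, was at 4580, 3438 and 3403 normalized counts against 2268, 2086 and 2496. Me1, which supplies NADPH, was at 21979, 15327 and 18599 against 11598, 10102 and 11464. Elovl3, a fatty acid elongase of brown fat, was at 37165, 37576 and 24025 against 15421, 20639 and 23798, with the C libraries almost level. Fasn, the central synthase, overlapped between groups, at 111521, 101417 and 119312 against 108335, 75285 and 129054, as did the desaturase gene Scd1.

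The thermogenic programme moved little. Of 38 genes, 23 had a positive log2 fold change, with a median of 0.11 (0.067 without WT Cold B and 0.046 without GCN2 KO Cold C). On the CPM scale the median was -0.0028, beside -0.12 over all genes. Ucp1 was at 278404, 278575 and 286835 normalized counts in GCN2 KO Cold and 234217, 243931 and 220783 in WT Cold, higher in all 3 libraries without passing either test (log2 fold change 0.27, limma adjusted p = 0.283, DESeq2 0.0776). Dio2, which activates thyroid hormone, was at 31456, 27828 and 27780 against 32861, 28857 and 19126, and Ppargc1a, the coactivator of mitochondrial genes, at 6601, 4641 and 15161 against 10530, 5807 and 6654. Both overlapped between the groups. Cidea, a lipid droplet protein, was at 59521, 61414 and 59248 against 44373, 47257 and 46087 (log2 fold change 0.39, DESeq2 adjusted p = 0.00110, limma 0.0960). Ckmt2, the creatine kinase of striated muscle mitochondria, is on this list too and was lower by DESeq2 (log2 fold change -2.25, adjusted p = 0.0444, limma 0.141). Dusp4, a phosphatase of MAP kinases, was the 1 member that limma passed, and fell from 1459, 1644 and 1717 to 679, 824 and 858 (log2 fold change -1.03, SE 0.12, limma adjusted p = 0.0295).

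Fuel use lists shared a small positive lean. Log2 fold changes were positive for 19 of 21 citric acid cycle genes (median 0.18), 20 of 22 genes of mitochondrial fatty acid oxidation (0.20), 21 of 25 of branched-chain amino acid breakdown (0.18, and 0.080 without GCN2 KO Cold B) and 15 of 24 of glucose uptake and glycolysis (0.19, and 0.12 without library C of both groups). None of these passed limma, and DESeq2 passed Mdh1, Etfb, Mut, Pfkl, Tpi1, Eno1 and Ldhb higher and the muscle isoform Pfkm lower. Pfkl, the liver-type phosphofructokinase, was at 19381, 22271 and 20102 normalized counts against 15085, 14742 and 15306. Of the 33 antioxidant genes 24 were positive (median 0.19). Gsta4, which detoxifies lipid aldehydes, rose from 1523, 1416 and 1383 to 2068, 2081 and 1981 (log2 fold change 0.50, limma adjusted p = 0.0483), and Gpx4 and Prdx5, both peroxidases, passed DESeq2. On the CPM scale Gsta4 did not pass (0.101), and the medians of these lists lay between 0.06 and 0.08, where the median of all genes was -0.12.

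**Figure D3:**
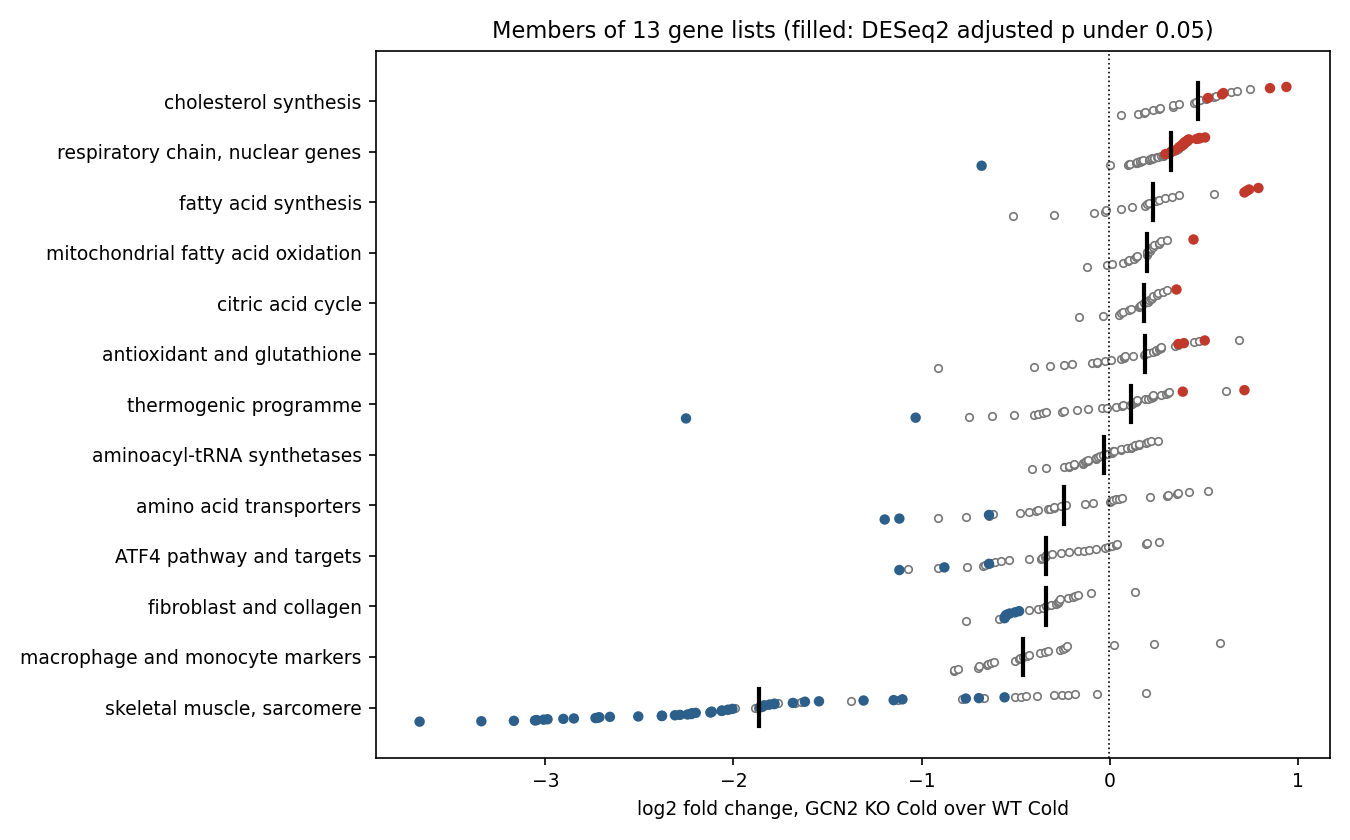
Log2 fold change (GCN2 KO Cold over WT Cold) of each member of 13 gene lists, with a bar at each list's median and a dotted line at the median of all genes tested. Filled points passed DESeq2, and all members of the cholesterol list and 58 of 59 of the respiratory chain list lie right of the dotted line, while the ATF4, collagen, macrophage and sarcomere lists lie mostly left of it.

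Targets of the integrated stress response leaned lower, with few calls. Of 33 genes of the ATF4 list 27 had a negative log2 fold change, with a median of -0.34 (-0.13 without WT Cold C and -0.20 without GCN2 KO Cold A), none passed limma (9 lower and 0 higher at an unadjusted p under 0.05), and DESeq2 passed Slc7a5, Slc7a1 and Mthfd2 lower. Slc7a5, the large neutral amino acid transporter, was at 67.5, 91.8 and 68.9 normalized counts in GCN2 KO Cold and 184, 134 and 181 in WT Cold. Mthfd2, of mitochondrial one-carbon metabolism, was at 156, 196 and 279 against 414, 270 and 479, with overlapping groups. Asns, the asparagine synthetase and a classical ATF4 target, was at 2122, 2250 and 2145 against 1953, 1627 and 2169, and Atf4 itself was at 5602, 5104 and 8064 against 6996, 6587 and 7850. The groups overlapped for both.

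Several of these targets differed more between libraries of a group than between groups. Chac1, a glutathione-degrading enzyme, was at 63.3, 65.3 and 152 against 98.6, 102 and 589, Trib3, a pseudokinase, at 194, 290 and 385 against 216, 257 and 824, and the hormone gene Fgf21 at 19, 37.7 and 164 against 33.8, 30.2 and 237. In both groups library C was the highest for these 3 genes. Among 32 amino acid transporters 13 had a positive log2 fold change, the median was -0.24 (-0.12 without GCN2 KO Cold C and -0.15 without library C of both groups), and DESeq2 passed Slc43a1 (log2 fold change -1.20), Slc7a5 and Slc7a1, all lower. The 38 aminoacyl-tRNA synthetases had a median of -0.03 (-0.06 to 0.02 with 1 library left out) with no gene passed by limma or DESeq2. At an unadjusted p under 0.05 by limma there were 5, against 2500 of all 16312 genes. The element TGATGNAA, on either strand, was in 10 of 28 promoters of ATF4 list genes and in 2.85% of tested genes, and the median log2 fold change was -0.32 for list genes with it and -0.40 for those without.

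Off the muscle lists 24 genes fell, among them a gene known from macrophages. Pla2g7, a secreted phospholipase made by macrophages and adipose tissue, fell from 2813, 2925 and 3574 to 1098, 1658 and 1060 (log2 fold change -1.31, SE 0.18, limma adjusted p = 0.0439). Prx, a myelin gene of Schwann cells, was at 83.3, 71.4 and 63.4 against 161, 139 and 140 and passed DESeq2 only. Sox10, which defines the Schwann cell, was at 45.3, 37.7 and 29.5 against 52, 53.7 and 44.3, with overlapping groups. Of the 20 tested Schwann cell and nerve markers 12 had a negative log2 fold change, with a median of -0.20 (-0.13 without WT Cold B). Limma passed 1 of them lower and DESeq2 2, against 0.227% and 1.84% of all genes. At an unadjusted p under 0.05 by limma 7 were lower and 2 higher, against 1222 and 1278 of all 16312 genes.

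The other genes that fell have varied known roles. Fam134b, a receptor for autophagy of the endoplasmic reticulum, fell from 3232, 2418 and 2050 normalized counts to 898, 656 and 627 (log2 fold change -1.81, SE 0.20, limma adjusted p = 0.0295). Olfr1033 fell from 195, 314 and 293 to 92.8, 77.5 and 73.3, St6galnac5, a sialyltransferase, from 123, 143 and 178 to 43.2, 56.1 and 40.5, and the orphan receptor Gpr157 from 346, 298 and 289 to 125, 118 and 76.6. In WT RT, Olfr1033 was at 1.84 CPM, against 9.84 (WT Cold) and 2.77 (GCN2 KO Cold). Fam134b was likewise highest in WT Cold, at 29.5 CPM in WT RT, 95.2 (WT Cold) and 24.8 (GCN2 KO Cold), whereas St6galnac5 was highest in WT RT at 10.6 CPM. Smaller falls, with log2 fold changes from -0.64 to -0.55, were those of Celf2, which binds RNA, Rab11b, which directs endosome recycling, Cd59a, which blocks complement, and Pdzd2. Cryab, a small heat shock protein abundant in striated muscle, fell from 3557, 2753 and 2171 to 1142, 935 and 756. Of the 23 heat shock chaperones 15 had a positive log2 fold change, with a median of 0.09 (-0.03 on the CPM scale, and -0.06 without WT Cold C). DESeq2 passed only Cryab, Hspa1a (log2 fold change -2.16) and Hspa1b (-0.89) of them, all lower, where it passed 1.84% of all genes lower.

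**Figure D4:**
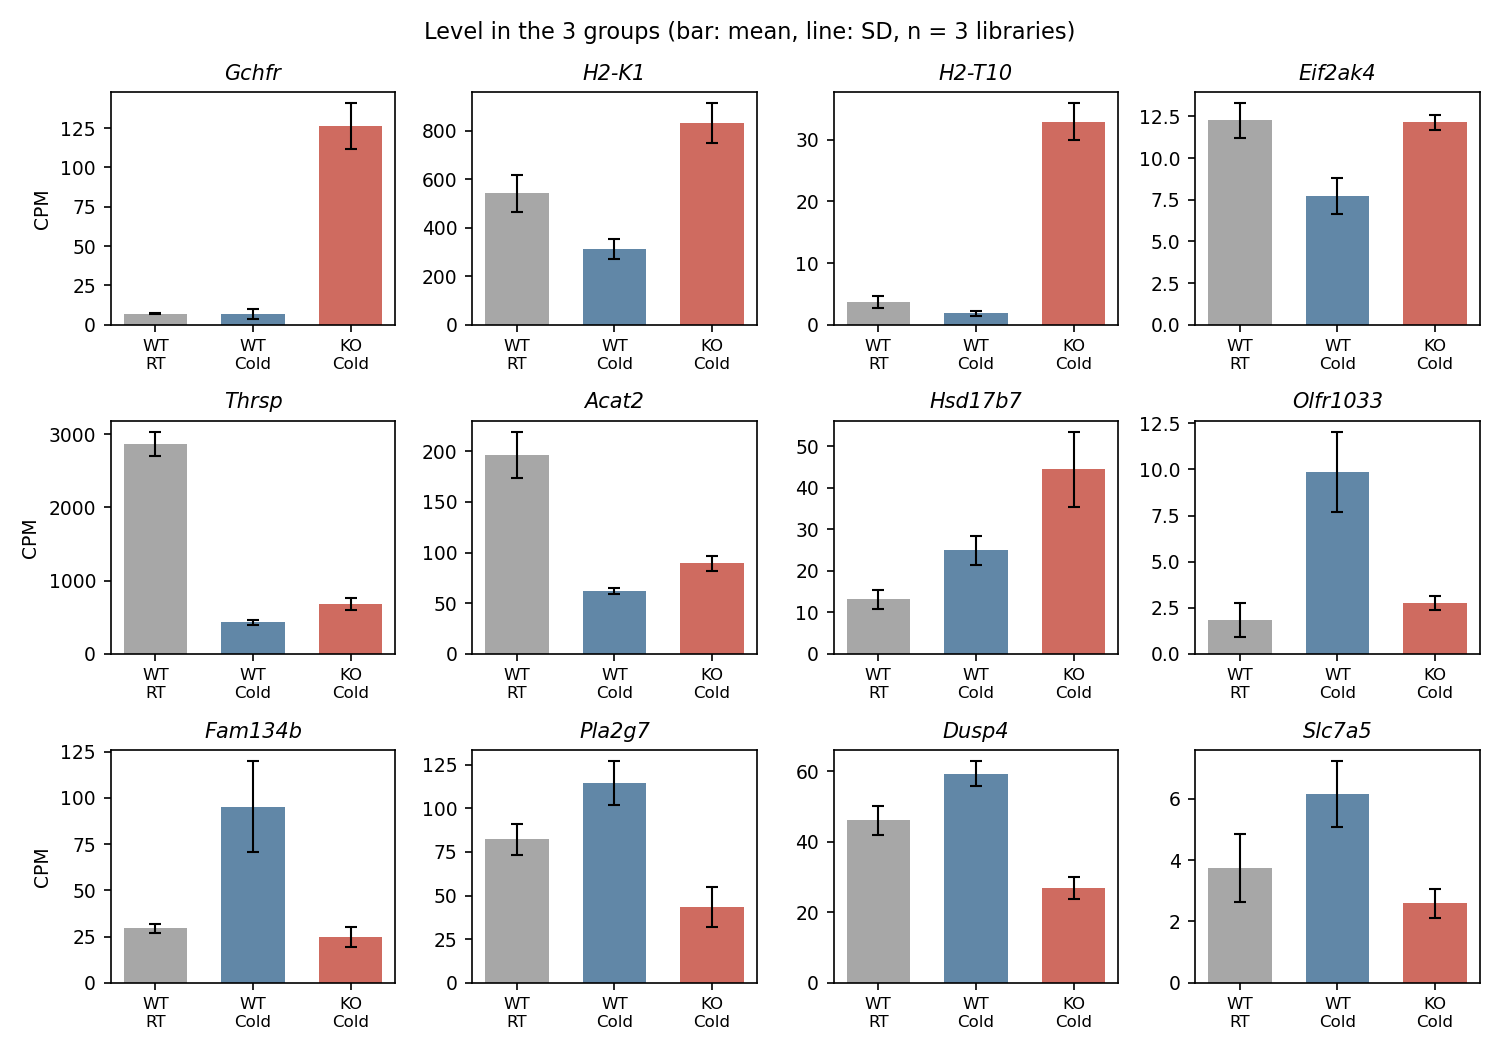
Mean CPM of 12 genes in WT RT, WT Cold and GCN2 KO Cold, with lines for the SD over 3 libraries and axes starting at 0. Gchfr and H2-T10 are low in both WT groups, Thrsp and Acat2 are highest in WT RT, and Olfr1033 is highest in WT Cold.

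Among markers of cell types other than brown adipocytes and muscle, DESeq2 passed the most in the fibroblast and collagen list. Of its 25 genes 24 had a negative log2 fold change (median -0.34), none passed limma (14 lower at an unadjusted p under 0.05), and DESeq2 passed Col5a2, Col3a1, Mmp2, Col6a1, Col6a2, Col6a3 and Fbn1 lower, 7 genes, where it passed 1.84% of all genes lower. The groups were apart, lower, for 14 of the 25, against 10.7% of all genes. Col3a1, a fibrillar collagen, was at 6385, 5201 and 5257 normalized counts against 7924, 7804 and 7694. Of 25 macrophage markers 22 were negative (median -0.46, and -0.25 without library C of both groups) with none passed by limma or DESeq2. At an unadjusted p under 0.05 by limma 8 were lower, against 1222 of all 16312 genes. The defining genes of macrophages overlapped or nearly so, with Adgre1 at 99.1, 242 and 168 against 257, 185 and 335. Of 22 endothelial markers 17 were negative (median -0.13, -0.075 without WT Cold B and -0.083 without GCN2 KO Cold A), and Vwf and Plvap passed DESeq2 lower. Among the 26 lymphocyte markers 12 were not in the table and none of the other 14 passed. The 8 red blood cell transcripts overlapped, with Hba-a1 between 4157 and 16246 over the 6 libraries.

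Sarcomere RNA moved with these groups. The median of the 72 sarcomere genes, relative to the WT Cold mean, was -1.27, -1.51 and -3.08 on the log2 scale in GCN2 KO Cold and 0.29, 0.06 and -0.37 in WT Cold, and 71 had a negative log2 fold change. Limma passed 9 of them and DESeq2 46, all lower, and of 79 further muscle genes limma passed 4 lower and DESeq2 37 lower and 1 higher, which was Cox8b. Acta1, the skeletal actin, was at 9096, 7436 and 2177 normalized counts against 24808, 23437 and 16730. Many of the largest falls off the lists are genes known from striated muscle, such as Myo18b (log2 fold change -2.91), Abra (-2.85), Hhatl (-2.60), Klhl30 (-2.54), Alpk2 (-2.26), Ckmt2 (-2.25), Cavin4 (-2.25), Smtnl1 (-2.23) and Alpk3 (-2.17). Of the 131 genes off the muscle lists that DESeq2 passed with a log2 fold change over 1 in size, 106 were lower and 25 higher. The part of muscle RNA in the other falls was not tested. Library C had the lowest sarcomere median of its group in both groups.

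**Figure D5:**
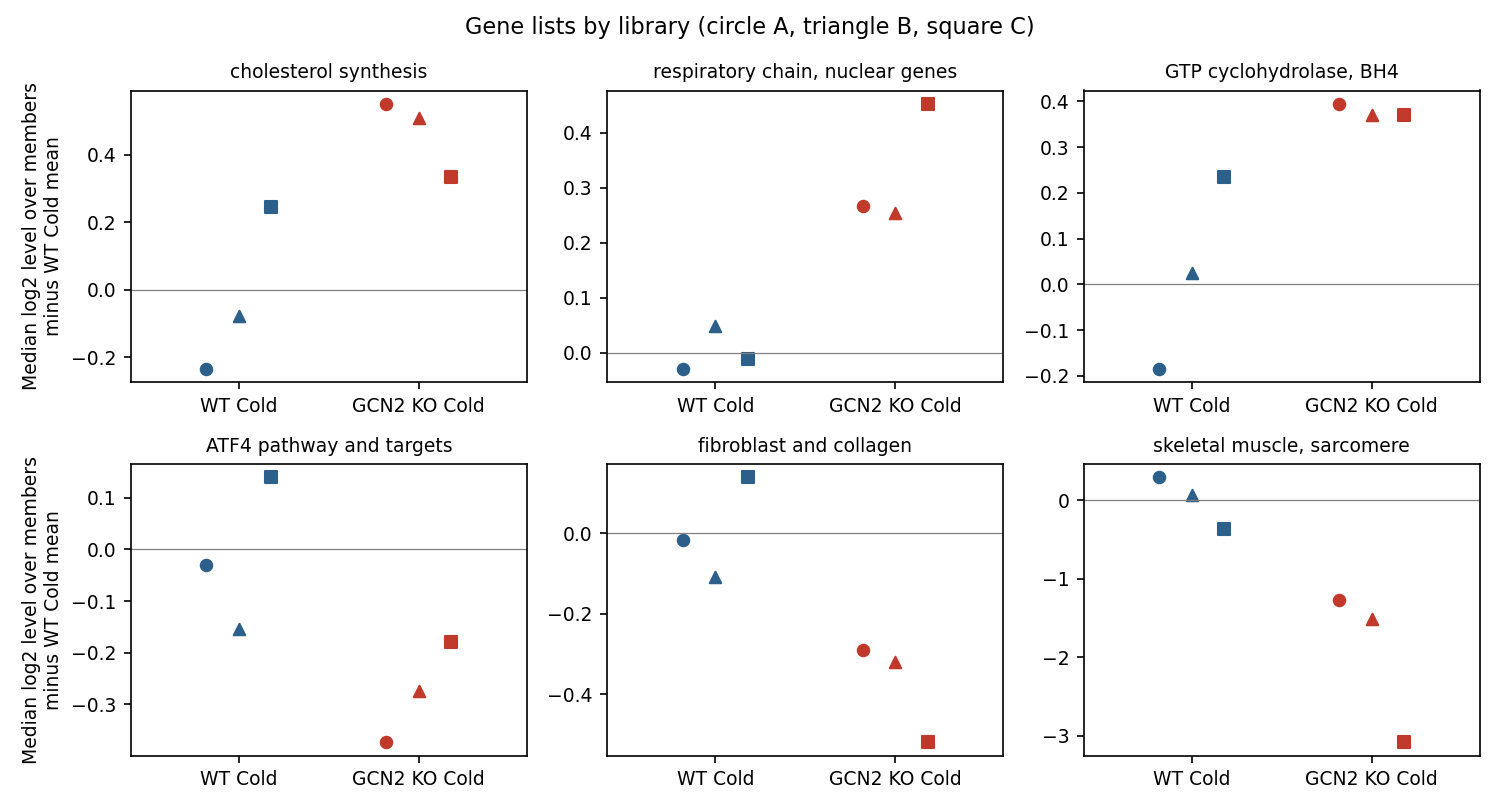
Median log2 level over the members of 6 gene lists in each library, relative to the WT Cold mean, with a circle, triangle and square for libraries A, B and C. Cholesterol, respiratory chain and tetrahydrobiopterin genes are higher, and ATF4, collagen and sarcomere genes lower, in every GCN2 KO Cold library than in any WT Cold library, with sarcomere genes lowest in GCN2 KO Cold C.

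Rab4a, which directs early endosome recycling, rose from 92.2, 115 and 102 normalized counts to 223, 202 and 215 (log2 fold change 1.05, SE 0.15, limma adjusted p = 0.0461), and St7 rose from 303, 350 and 368 to 539, 614 and 616. Mmd2, Chst8, Tacr2, Hsd3b5, Gldn, Dnajc22 and Selenbp2 passed DESeq2 only, with log2 fold changes from 1.05 to 1.49. Mmd2 was at 902, 798 and 694 against 284, 275 and 474, and Tacr2, the receptor for neurokinin A, at 155, 153 and 75.5 against 41.1, 65 and 28.9. The groups were apart in all of these but Selenbp2, at 198, 462 and 425 against 110, 184 and 214. Fcor, which restrains the transcription factor FOXO1 in adipocytes, rose from 589, 602 and 698 to 1060, 1001 and 965 (log2 fold change 0.68, SE 0.10, limma adjusted p = 0.0462).

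Immediate early genes had negative log2 fold changes for 21 of 24 (median -0.26, and -0.13 without GCN2 KO Cold B), with Jun passed by DESeq2, and insulin and IGF signalling genes for 20 of 24 (median -0.24, and -0.13 without library C of both groups), with Socs2 passed by DESeq2. Cell cycle genes were negative for 28 of 33 (median -0.29, and -0.19 without GCN2 KO Cold B), with Ube2c passed by DESeq2. The proteasome (median 0.08, and -0.04 on the CPM scale), the chaperones of the endoplasmic reticulum (-0.01, and -0.13 on the CPM scale), the circadian clock (-0.08, and -0.20 on the CPM scale) and the lysosome and autophagy genes (0.01, and -0.11 on the CPM scale) had medians that moved with single libraries (0.05 to 0.12, -0.05 to 0.06, -0.15 to -0.06 and -0.05 to 0.04 with 1 left out). The median of all genes on the CPM scale was -0.12. These lists gave no gene passed by limma, and DESeq2 passed Npc2 of the last list. Of 17 imprinted growth genes 11 had a negative log2 fold change (median -0.27). At an unadjusted p under 0.05 by limma 5 were lower and 2 higher, against 1222 and 1278 of all 16312 genes. The imprinted genes H19 and Nnat, which are active in growing tissues, passed DESeq2 lower, with log2 fold changes of -2.10 and -1.64. Both were lowest in GCN2 KO Cold C, at 143 normalized counts each. This library had the least sarcomere RNA and stood apart in sex-linked transcripts, and whether either bears on these values was not tested.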

How the data were processed

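Brown adipose tissue RNA was sequenced in 9 libraries, and the 6 cold-exposed ones were compared. Per the labels' processing notes, the authors used Trimmomatic 0.36, STAR 2.5.2b, featureCounts of Subread 1.5.2, and DESeq2, with GRCm39 named as the build. The deposited signal is a normalized count, reads divided by a library size factor. Columns of fold changes and p-values that the authors deposited beside it were not used. Dividing by the steps of the low values gave whole reads for 100% of values within 0.01, with 0 columns of other samples. No replicates were duplicates (chi-square per degree of freedom of at least 18.3).

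Genes were tested with limma 3.58.1 (two-sided, mean-variance trend, Benjamini-Hochberg over all 16312 genes) on log2(normalized count + 1), which understates changes of low genes. DESeq2 1.42.0 and edgeR 4.0.16 (R 4.3.3) on the recovered reads, other scalings, pseudocounts, filters and left-out libraries were alternatives, and the code was tested on simulated data. The libraries came from 3 mice in each group, according to the study, so p-values measure the spread between mice. That spread includes any difference between library C and the other libraries of its group, for which the main fit held no term.

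The named genes were Eif2ak4, all genes with a limma adjusted p under 0.05, the 15 largest rises and falls off the muscle lists by DESeq2 (log2 fold change over 1 in size, mean of at least 50), and from each of 42 gene lists the first 4 members, up to 6 of smallest p and those DESeq2 passed, with the sex-linked transcripts. Members and lists were chosen with earlier results of these data known, and Asns, B2m, Chac1, Eif3j1, Fgf21, Nlrc5, Psmb8, Psmb9, Psmb10, Scd1, Sox10, Srp14, Tap1, Tap2, Tapbp and Trib3 fall outside the rule and were named after their values were seen. Chromosome and order came from GENCODE M21 (GRCm38), used only for these, and promoters from RefSeq. A few genes that the rule names are not reported here.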

Additional observations from a re-analysis of the deposited data

How the results depend on the processing

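No paired analysis was possible because the library columns carry no replicate numbers. Genes passed with a log2 fold change over 1 in size numbered 42 (10 higher, 32 lower) as reported, 208 (25 and 183) with DESeq2, 179 (169 lower) with all 3 groups in the fit, 6 (5 and 1) without the mean-variance trend, 130 (19 and 111) without library C of both groups and 181 (16 and 165) with a term for library C, both alternatives chosen after seeing the data. Without the fold threshold there were 66 (29 higher), 536 with DESeq2, 419 with all 3 groups, 6 without the trend, 168 without library C of both groups and 289 with a term for library C. With 1 library left out, the ranges were 3 to 22 in all, 3 to 10 higher, 0 to 12 lower, and 3 to 24 without the fold threshold. At 0 genes lower, without WT Cold A or B, limma still had 1779 and 2021 genes of either direction at an unadjusted p under 0.05. The split of the genes passed without the fold threshold was 29 higher and 37 lower as reported, 11 and 52 on CPM, 52 and 367 with all 3 groups on CPM, and 81 and 208 with a term for library C. The log2 fold change of Eif2ak4 passed with DESeq2 (0.77, adjusted p = 0.00271) and with all 3 groups (0.66, limma adjusted p = 0.0360), and had the same sign in every alternative. Of the 66 genes, 35 passed in none of the 6 fits that left out 1 library and 3 in all of them, and 48 of them passed without library C of both groups. Over the named genes and their alternatives, 1889 log2 fold changes kept their direction and side of the threshold, 261 kept the direction and no longer passed, 165 newly passed, and 43, of 13 genes, changed sign. None of these 13 genes passed limma as reported, and none of the 43 values passed the threshold. On CPM the reversed log2 fold changes were -0.071 (Ddx3y), -0.086 (Nlrc5), -0.053 (Ppargc1a), -0.0015 (Psmb9), -0.057 (Scd1), -0.058 (Srebf2) and -0.037 (Tap2), and with all 3 groups, also on CPM, these 7 values were equal at this rounding. Ddx3y reversed with DESeq2 (-0.26) and edgeR (-0.25) as well. Without library C of both groups the reversed values were -0.26 (Ddx3y), -0.058 (Dio2), -0.50 (Ppargc1a), -0.064 (Scd1) and 0.0072 (Trib3). With 1 library left out the ranges of the 13 genes were -1.27 to 1.05 (Ddx3y), -0.088 to 0.30 (Dio2), -0.098 to 0.29 (Fasn), -1.19 to 0.61 (Fgf21), -0.30 to 0.077 (Gch1), -0.13 to 0.13 (Nlrc5), -0.42 to 0.43 (Ppargc1a), -0.036 to 0.32 (Psmb8), -0.032 to 0.23 (Psmb9), -0.11 to 0.30 (Scd1), -0.039 to 0.14 (Srebf2), -0.00045 to 0.14 (Tap2) and -0.72 to 0.24 (Trib3). The cause of these differences was not tested. At 27055469 or more reads per library, genes near 0 in a group, such as Gm14085, limit the fold change that can be stated.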

Other observations

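Of 31 genes of lipolysis and lipid droplets 18 had a positive log2 fold change (median 0.04, -0.08 on the CPM scale, and 0.02 to 0.10 with 1 library left out), limma passed none (12 at an unadjusted p under 0.05), and DESeq2 passed Cidea, Fabp4 and Agpat2 higher and Plin4, Gpat3 and Fitm1 lower, where it passed 1.45% of all genes higher and 1.84% lower. Agpat2, which makes phosphatidic acid for triglyceride synthesis, was at 30468, 28195 and 23291 normalized counts in GCN2 KO Cold and at 20847, 21230 and 18399 in WT Cold. Plin4, a coat protein of lipid droplets, was at 6727, 7616 and 8155 against 9907, 10214 and 12097, so that both genes were apart between the groups in opposite directions. Gpat3, the acyltransferase of the step before AGPAT2, was at 613, 805 and 542 against 1136, 1325 and 1073, lower in every GCN2 KO Cold library. Of 17 adipokine and white adipocyte genes 6 had a positive log2 fold change (median -0.23, and -0.084 without GCN2 KO Cold C), 2 were higher and 3 lower at an unadjusted p under 0.05 by limma, and DESeq2 passed Nnat and Apod lower. Apod, a lipid-binding secreted protein, was at 308, 306 and 294 against 585, 448 and 628 (log2 fold change -0.85, DESeq2 adjusted p = 0.000128, limma 0.0661).

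Adrenergic and cAMP signalling genes had negative log2 fold changes for 18 of 25 (median -0.16, and -0.10 and -0.11 without WT Cold A or GCN2 KO Cold A), with none passed by limma or DESeq2 (5 at an unadjusted p under 0.05 by limma). Adrb3, the main adrenergic receptor of brown adipocytes, was at 2085, 2748 and 3073 normalized counts in GCN2 KO Cold and at 3121, 3167 and 3745 in WT Cold. All 3 GCN2 KO Cold values were below the WT Cold values, without passing limma (adjusted p = 0.316). The other kinases and phosphatases of eIF2 on their list of 9 tested genes, which holds Eif2ak4 as well, gave no call by limma or DESeq2. The 4 cold-inducible RNA-binding proteins had a median log2 fold change of 0.09 (-0.02 on the CPM scale, and 0.05 to 0.16 with 1 library left out) with overlapping groups. Genes of serine synthesis and one-carbon metabolism had a median of 0.05 (-0.07 on the CPM scale, and -0.10 without WT Cold A to 0.12 without WT Cold C) with Mthfd2 passed lower by DESeq2. Of 21 nonmuscle actomyosin genes 15 had a negative log2 fold change and 6 a positive one, with a median of -0.12 (-0.20 to -0.05 with 1 library left out). Limma passed only Tpm3 of these, lower, at 2857, 2578 and 2219 against 5326, 5011 and 4062. The part of muscle RNA in this fall was not tested. Neutrophil, pericyte and smooth muscle markers gave no gene passed by limma or DESeq2 (3 at an unadjusted p under 0.05 by limma).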
